A study of Homo sapiens with 6 samples.

Results

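The genes described here are enzymes that set which fatty acids sit in membrane phospholipids: the lysophospholipid acyltransferases MBOAT1, MBOAT2, MBOAT7, LPCAT1, LPCAT2, LPCAT3 and LPCAT4 and the long-chain acyl-CoA synthetases ACSL1, ACSL4 and ACSL6. Members were all probe sets annotated to any of these 10 genes. This gave 9 probe sets, 1 each for 9 genes, among 18417 genes measured on the arrays, and MBOAT2 was not analysed here. All 9 had a value in each line, and no filter on low values was applied. The set was selected on its enzymes' roles and on measured values, above all the difference in MBOAT1 between the groups compared below, so the group differences of these 9 genes are given as descriptions, without p-values, and support nothing on their own.

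The samples were 6 monoclonal lines of K562, a human chronic myeloid leukemia cell line. Of these, 3 were stably transfected by electroporation with the empty vector pEF1a (vector lines) and 3 with pEF1a-Pu.2, and all 6 were kept in puromycin. Pu.2 is the murine transcript that starts in a retrotransposon within the Pu.1 locus, and it encodes an N-terminally truncated form of the ETS factor PU.1. Expression was read on Affymetrix Human Gene 1.0 ST arrays, 1 per line, from total RNA. Every line is 1 clone, and n gives the number of lines. For culture, the labels give Schneider's medium and 24 °C, whereas the study's methods give a mammalian medium for K562. The values are log2 levels per probe set, and a difference of 1 is a 2-fold difference. The fit across all genes was limma with Benjamini-Hochberg adjustment, and a gene is called higher or lower at an adjusted p under 0.05. With 1 array per line, the spread between lines cannot be assigned to clones or to handling, and fewer cells with a transcript cannot be told apart from less of it per cell.

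The array medians lay between 5.30 and 5.42. All 8 measured erythroid markers of 10 listed (GATA1, TAL1, LMO2, NFE2, KLF1, HBE1, EPOR and TFRC) lay above the array median in every line. The log2 of their summed linear levels was 12.96 to 13.48 in the vector lines, against 13.52 to 13.59 in the pEF1a-Pu.2 lines. HBE1, the brightest, weighs most in this sum, with log2 values of 12.28 to 12.89 against 12.95 to 13.06. The groups did not overlap for HBE1 and GATA1, and overlapped for TAL1, LMO2, NFE2, KLF1, EPOR and TFRC. The part of this summed level in the results below was not tested. Of 9 monocyte and macrophage markers 1, CD68, lay above the array median in every line. The log2 of the summed linear levels of this list was 8.11 to 8.38 in the vector lines, against 7.98 to 8.15 in the others. Of 8 measured granulocyte markers 3 and of 8 measured lymphocyte markers 2 lay above the array median in every line. Of 10 epithelial and stromal markers 5 did, with EPCAM at log2 values from 10.28 to 11.08. The log2 of the summed linear levels of these 10 was 11.29 to 11.54 in the vector lines and 10.91 to 11.43 in the others. Of 43 measured markers limma called 0 (over all genes 0.369%), with 6 at an unadjusted p under 0.05 (over all genes 9.53%). These 6 were HBE1 and PDGFRB with higher means in the pEF1a-Pu.2 lines and CD68, KRT8, KRT18 and KRT19 with lower ones. Human SPI1, which encodes PU.1, had a log2 difference of 0.33 (standard error 0.12), and whether its probes read the murine transcript was not analysed here. Vector line 3 weighed on the number of calls: without it 432 genes were called, against 68 with all lines and 20 to 42 without any other line. Over all genes it correlated at r = 0.973 and 0.981 with vector lines 1 and 2. With pEF1a-Pu.2 lines 1, 2 and 3 it correlated at 0.982, 0.982 and 0.979. Vector lines 1 and 2 correlated at 0.988 with each other. What sets vector line 3 apart was not tested.

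Phospholipids are made with an initial set of acyl chains and are then remodelled. A phospholipase removes a fatty acid, an acyl-CoA synthetase of the ACSL family activates a free fatty acid to its coenzyme A ester, and a lysophospholipid acyltransferase attaches it to the lysophospholipid. The acyltransferases belong to a pair of unrelated families, the membrane-bound O-acyltransferases (MBOAT1, MBOAT2, MBOAT7 and LPCAT3) and relatives of the AGPAT enzymes (LPCAT1, LPCAT2 and LPCAT4). ACSL4 prefers arachidonic acid, and LPCAT3 and MBOAT7 place arachidonate into phospholipids. Polyunsaturated phospholipids made through ACSL4 and LPCAT3 are the ones oxidized in ferroptosis, an iron-dependent form of cell death.

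ACSL4 was lower in the pEF1a-Pu.2 lines whereas LPCAT3 and MBOAT7 were not. The promoters of these 3 genes, named above for arachidonate, are therefore shown. Each is the 250 bases before the RefSeq start in GRCh38.p14, minus strand, written in the direction of the gene, with GGAA, the core bound by ETS factors, and its reverse complement TTCC in capitals.
ACSL4, chrX:109733258-109733507: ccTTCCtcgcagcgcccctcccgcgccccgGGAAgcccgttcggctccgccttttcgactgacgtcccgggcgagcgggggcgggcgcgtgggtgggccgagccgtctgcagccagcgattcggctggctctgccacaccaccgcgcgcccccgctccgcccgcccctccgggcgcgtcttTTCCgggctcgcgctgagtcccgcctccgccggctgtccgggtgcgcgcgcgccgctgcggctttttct
LPCAT3, chr12:7018477-7018726: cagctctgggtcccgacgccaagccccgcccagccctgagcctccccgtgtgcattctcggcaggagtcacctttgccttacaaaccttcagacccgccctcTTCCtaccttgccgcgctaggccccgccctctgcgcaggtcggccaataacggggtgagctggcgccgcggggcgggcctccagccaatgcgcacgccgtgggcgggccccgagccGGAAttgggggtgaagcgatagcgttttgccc
MBOAT7, chr19:54189581-54189830: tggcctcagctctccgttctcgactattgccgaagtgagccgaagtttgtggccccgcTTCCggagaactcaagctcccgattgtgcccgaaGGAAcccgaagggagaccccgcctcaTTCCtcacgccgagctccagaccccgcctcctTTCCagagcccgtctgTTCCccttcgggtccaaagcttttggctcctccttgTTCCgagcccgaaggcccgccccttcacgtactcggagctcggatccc
On both strands GGAA stood 3 times before ACSL4, 2 times before LPCAT3 and 6 times before MBOAT7, and 92.7% of all 35116 windows of this length hold it. The longer GAGGAA, which contains GGAA, occurred 1 time before ACSL4 and 1 time before MBOAT7, and 0 times before LPCAT3, against a share of 23.6% of all windows. The erythroid motifs AGATAA and CACCC, held by 9.17% and 54.7% of all windows, occurred 0 and 2 times before ACSL4, 0 and 2 times before LPCAT3 and 0 and 0 times before MBOAT7. Windows were found for 8 of the 10 genes, not for MBOAT1 and LPCAT2. These matches are descriptions of letters and not binding sites.

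MBOAT1 and ACSL4 fell in the pEF1a-Pu.2 lines, and LPCAT2 had a difference nearly as large as that of MBOAT1 with a wider spread between lines. Of the 9 genes 2 were called, both lower, where 0.369% of all genes were called in either direction and 0.223% were called lower. In 5 of the 9 genes the groups did not overlap, 3 with all pEF1a-Pu.2 lines below and 2 with all above, where 13.8% of all genes did not overlap (6.8% with all below and 7.02% with all above). The median log2 difference of the 9 genes was -0.23, against 0.02 over all genes. Since this comparison was in view when the genes were chosen, nothing is read from these shares.

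MBOAT1, on chromosome 6, encodes an enzyme that acylates lysophosphatidylethanolamine and lysophosphatidylserine, mainly with oleate. Its log2 values were 7.24, 7.64 and 7.34 in vector lines 1, 2 and 3 and 5.002, 5.26 and 5.13 in pEF1a-Pu.2 lines 1, 2 and 3. All vector lines lay above all pEF1a-Pu.2 lines, with 1.98 between the nearest, and the lines of a group lay close together. The means were 7.41 ± 0.21 and 5.13 ± 0.13 (SD, n = 3 lines each), a log2 difference of -2.28 (standard error 0.14), or 4.84-fold. The difference between groups made up 98.5% of the sum of squares over the 6 lines. With any 1 line left out MBOAT1 was called in 6 of 6 cases, with log2 differences from -2.36 to -2.16. The gene was chosen on this difference, so these calls only describe how much it depends on single lines. The MBOAT1 spread within groups (SD 0.17) ranked at the 47.7th percentile of all genes.

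MBOAT7 and LPCAT3, of the same family, were not called and had small differences in the other direction. MBOAT7, which esterifies arachidonate to lysophosphatidylinositol, had log2 values of 6.41, 6.37 and 6.49 in the vector lines, against 6.50, 6.63 and 6.65 in the pEF1a-Pu.2 lines. The groups did not overlap, but vector line 3 and pEF1a-Pu.2 line 1 were 6.49 and 6.50. The log2 difference was 0.17 (standard error 0.11), and the spread within groups (SD 0.07) was at the 5.34th percentile of all genes. LPCAT3, which places polyunsaturated chains into phosphatidylcholine and phosphatidylethanolamine, had 8.76, 9.02 and 8.58 in the vector lines, against 8.81, 9.03 and 8.98 in the pEF1a-Pu.2 lines. The groups overlapped, with a log2 difference of 0.15 (standard error 0.15). It was 0.27 without vector line 2, 0.05 without vector line 3 and -0.02 with array weights.

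LPCAT2 was the gene of the AGPAT-related branch whose groups did not overlap, and of the 9 genes it varied the most within groups. It encodes an acyltransferase of inflammatory leukocytes that also makes platelet-activating factor, and it lies on chromosome 16. Its log2 values were 7.59, 7.69 and 6.61 in the vector lines, against 4.44, 6.05 and 4.79 in the pEF1a-Pu.2 lines. The groups did not overlap, but vector line 3 and pEF1a-Pu.2 line 2 lay toward each other, 0.55 apart. The means were 7.30 ± 0.60 and 5.10 ± 0.85 (SD, n = 3 lines each), a log2 difference of -2.20 (standard error 0.43), or 4.60-fold, which was not called. The spread within groups (SD 0.73) was at the 98.9th percentile of all genes. Without vector line 3 the log2 difference was -2.55 and without pEF1a-Pu.2 line 2 it was -2.68, and LPCAT2 was called in these 2 of 6 cases. It was also called with the replicate number as a block and with array weights.

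The other enzymes of this branch had small differences and overlapping groups. LPCAT1, known for making the saturated phosphatidylcholine of lung surfactant, had log2 values of 7.16, 7.28 and 6.98 in the vector lines, against 7.32, 6.96 and 6.82 in the pEF1a-Pu.2 lines. Its log2 difference of -0.11 (standard error 0.16) went to 0.00 without pEF1a-Pu.2 line 3 and to -0.25 without pEF1a-Pu.2 line 1. It was -0.035 and -0.19 without vector lines 2 and 3, -0.07 without pEF1a-Pu.2 line 2 and -0.22 with array weights. LPCAT4, which acylates lysophospholipids mainly with oleate, had 6.21, 6.01 and 6.03 and then 5.69, 5.79 and 6.08. Line 3 of the pEF1a-Pu.2 group lay within the range of the vector lines, and the log2 difference was -0.23 (standard error 0.14), or -0.15 without pEF1a-Pu.2 line 1.

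Of the acyl-CoA synthetases ACSL4 fell. ACSL4, on the X chromosome, had log2 values of 6.93, 7.70 and 7.27 in the vector lines, against 5.57, 5.96 and 6.01 in the pEF1a-Pu.2 lines. Every vector line lay above every pEF1a-Pu.2 line, with 0.92 between the nearest lines. The means were 7.30 ± 0.39 and 5.84 ± 0.24 (SD, n = 3 lines each), a log2 difference of -1.46 (standard error 0.21), or 2.75-fold. It was called in 2 of 6 cases with 1 line left out, namely without vector line 1 or 3. Its log2 difference was -1.26 without vector line 2 and -1.32, -1.51 and -1.54 without pEF1a-Pu.2 line 1, 2 or 3, and it was then not called. Centring each array on its median also left ACSL4 uncalled, with a log2 difference of -1.49.

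ACSL1, the broad synthetase of fat-burning and fat-storing tissues, had log2 values of 6.65, 7.15 and 6.09 in the vector lines, against 6.67, 5.91 and 6.31 in the pEF1a-Pu.2 lines. The groups overlapped, the log2 difference was -0.34 (standard error 0.28), and the spread within groups was at the 96.1st percentile of all genes. Its log2 difference ran from -0.61 without vector line 3 to -0.08 without vector line 2, and it was -0.80 with array weights, also not called. Without pEF1a-Pu.2 line 1 or 2 it was -0.52 or -0.14. ACSL6, a synthetase of brain and erythroid cells, had 4.69, 4.44 and 4.85 in the vector lines, against 4.89, 4.91 and 5.45 in the pEF1a-Pu.2 lines. All pEF1a-Pu.2 lines lay above the vector lines, the nearest by 0.04, and the log2 difference of 0.42 (standard error 0.18) was not called. Without pEF1a-Pu.2 line 3 it was 0.24.

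**Figure D1:**
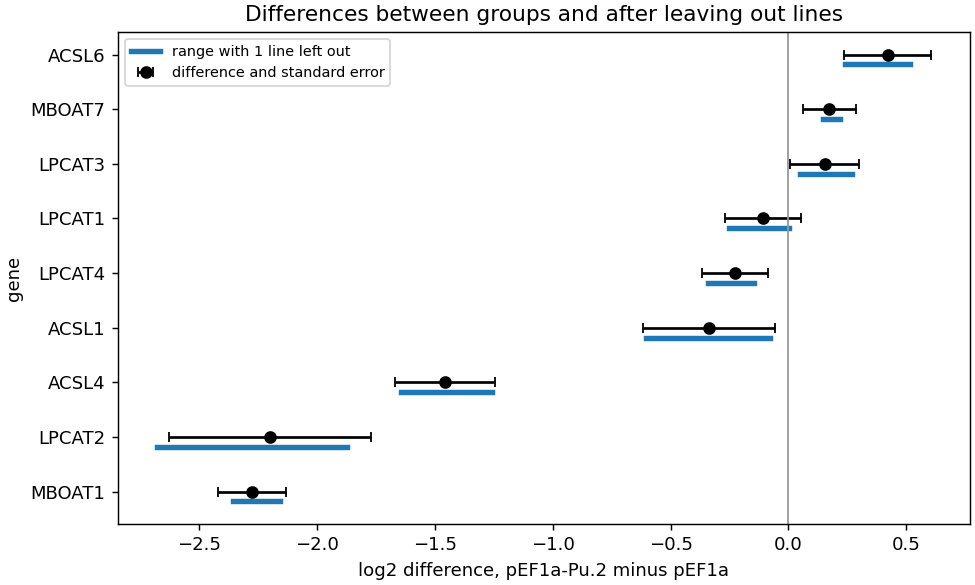
Log2 difference of the group means (horizontal axis, pEF1a-Pu.2 minus pEF1a) of the same 9 genes, with the standard error from limma (black) and the range of the difference when each line was left out in turn (blue). MBOAT1, LPCAT2 and ACSL4 stay below -1 in every case, and the other 6 genes lie between -0.61 and 0.52.

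The 3 low genes shared the order of some lines, in part with other members. Vector line 2 was the highest line for MBOAT1 (7.64), LPCAT2 (7.69) and ACSL4 (7.70), and pEF1a-Pu.2 line 1 was the lowest for each (5.002, 4.44 and 5.57). Vector line 2 was also the highest vector line for LPCAT3, LPCAT1 and ACSL1, and the lowest for MBOAT7, LPCAT4 and ACSL6. In its group pEF1a-Pu.2 line 1 was also the lowest for MBOAT7, LPCAT3, LPCAT4 and ACSL6, and the highest for LPCAT1 and ACSL1. The 3 low genes differed in vector line 3, where MBOAT1 (7.34) and ACSL4 (7.27) lay between the other vector lines and LPCAT2 (6.61) lay below them. As a measure of likeness, each gene's values were centred on its mean over the 6 lines and the root mean square of the differences between 2 genes was taken. MBOAT1 and ACSL4 differed by 0.43 on this scale, MBOAT1 and LPCAT2 by 0.53, and LPCAT2 and ACSL4 by 0.68. Over all measured genes the nearest to MBOAT1 were LRCH2 (0.26), the MAP kinase phosphatase DUSP10 (0.27), PHTF1 (0.28), SPATS2L (0.31) and INO80C (0.32), each over 6 lines. All 5 were also called lower, and the measure includes the difference between the groups.

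Genes next to these 9 on their chromosomes were compared in the same fit. They were taken by position, a choice made after the data had been seen. Of 36 neighbours, the nearest 2 measured genes on each side of each of the 9 genes, limma called 0, with 3 at an unadjusted p under 0.05 (over all genes 9.53%), namely CDKAL1, IRX6 and PRIMPOL. The groups of 7 of the 36 did not overlap, these 3 among them, where 13.8% of all genes did not overlap. CDKAL1, the second measured gene on one side of MBOAT1, lay lower in all pEF1a-Pu.2 lines, with a log2 difference of -0.39 (adjusted p = 0.44 from limma). IRX6 near LPCAT2 had one of 0.35 (adjusted p = 0.47), opposite in sign to LPCAT2. Directly beside MBOAT1, ID4 lay higher in all pEF1a-Pu.2 lines, with a log2 difference of 0.26 (adjusted p = 0.60 from limma). The cell cycle factor E2F3 had one of -0.14 (adjusted p = 0.87). CAPNS2, which overlaps LPCAT2 in the annotation, had one of -0.20 (adjusted p = 0.88), and the matrix protease MMP2 on the other side one of 0.16 (adjusted p = 0.86). Beside ACSL4, KCNE5 had one of 0.08 (adjusted p = 0.93) and TMEM164 one of -0.15 (adjusted p = 0.83). The largest difference of a neighbour was that of the primase-polymerase PRIMPOL near ACSL1, at -0.61 (adjusted p = 0.22).

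**Figure D2:**
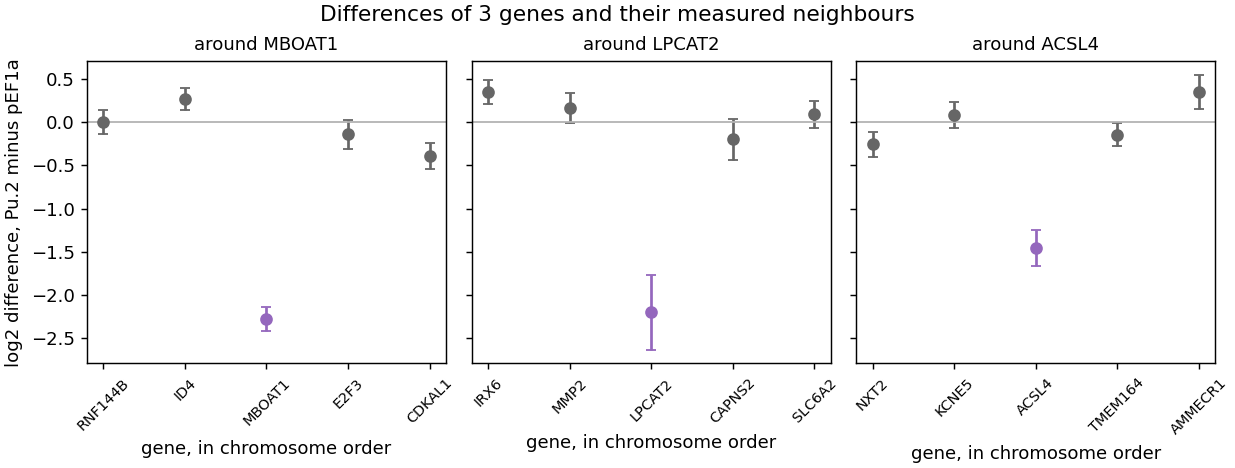
Log2 difference (vertical axis, pEF1a-Pu.2 minus pEF1a, error bars standard error from limma, n = 3 lines each) of MBOAT1, LPCAT2 and ACSL4 (purple) and of the 2 measured genes on each side (gray), in chromosome order and not to scale. The neighbours lie between -0.39 and 0.35, away from the 3 genes at -2.28, -2.20 and -1.46.

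Around the remodelling cycle 8 lists of 126 genes were taken, of which 117 were measured. Limma called 0 of the 117, where 0.369% of all genes were called. An unadjusted p under 0.05 was found for 9 of the 117 (3 higher, 6 lower) and for 9.53% of all genes. The median log2 difference of the 117 was 0.00 against 0.02 over all genes. Without vector line 3, 5 of the 117 were called: GPAT3, HSD17B12, PLA2G4A, FADS3 and SLC27A2. In that fit 432 of all 18417 genes were called. With any other single line left out 0 of the 117 were called. With array weights 11 of the 117 and 1349 of all genes were called. The medians of the 8 lists ran from -0.11 for the other glycerolipid acyltransferases to 0.08 for the phospholipases. Of 12 listed other glycerolipid acyltransferases, not limited to the first steps of synthesis, 10 were measured. GPAT3, which acylates glycerol 3-phosphate, had log2 values of 7.34, 7.84 and 6.42 in the vector lines, against 5.76, 4.80 and 4.66 in the pEF1a-Pu.2 lines. The groups did not overlap, and vector line 3 was the lowest vector line, as for LPCAT2. The log2 difference was -2.13 (standard error 0.39, adjusted p = 0.088 from limma), and with vector line 3 left out -2.52 (adjusted p = 0.0036). Over its alternatives the log2 difference of GPAT3 ran from -2.66 to -1.81. With the replicate number as a block or with array weights it was also called. AGPAT4, a lysophosphatidic acid acyltransferase, had 5.23, 5.03 and 4.69 in the vector lines, against 6.96, 5.51 and 5.65 in the pEF1a-Pu.2 lines. All pEF1a-Pu.2 lines lay above the vector lines, and the log2 difference was 1.06 (standard error 0.35, adjusted p = 0.36 from limma), or 0.60 without pEF1a-Pu.2 line 1.

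Phospholipases release the chains that the acyltransferases replace. Of 28 measured phospholipases and lysophospholipases of 30 listed, the arachidonate-releasing PLA2G4A had the largest difference, with log2 values of 4.44, 5.18 and 2.94 in the vector lines, against 3.25, 3.16 and 2.95 in the pEF1a-Pu.2 lines. Vector line 3 was at the level of the pEF1a-Pu.2 lines, and the log2 difference was -1.06 (adjusted p = 0.53 from limma), or -1.69 without that line (adjusted p = 0.0043). Without vector line 2 it was -0.57, and with array weights it was -1.83 (adjusted p = 0.027). PLAAT3 had one of 0.45 (adjusted p = 0.69), which was 0.12 without pEF1a-Pu.2 line 1.

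Among the other synthetases and transporters that activate fatty acids, 9 of 10 were measured. SLC27A2 had a log2 difference of -0.65 (standard error 0.18). Its limma adjusted p was 0.26, or 0.027 without vector line 3. With any other single line left out SLC27A2 was not called, and with array weights it was. ACSBG2 had a difference of 0.18 (adjusted p = 0.71).

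Desaturases and elongases make the chains, and 17 of 18 were measured. HSD17B12, the ketoreductase of fatty acid elongation, had log2 values of 3.12, 2.54 and 7.77 in vector lines 1, 2 and 3 and 7.01, 6.47 and 7.54 in the pEF1a-Pu.2 lines. Vector lines 1 and 2 lay far below the other 4 lines. Its log2 difference was 2.53 (standard error 1.17, adjusted p = 0.56 from limma), 4.18 without vector line 3 (adjusted p = 0.00015), and 1.56 without vector line 2. FADS3, of the desaturase family, differed by -0.89 on the log2 scale (standard error 0.22), and its groups did not overlap. Its adjusted p from limma was 0.20, or 0.013 without vector line 3. With any other single line left out FADS3 was not called, and with array weights it was.

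For head group synthesis (18 of 19 measured), CDS2, which makes CDP-diacylglycerol for phosphatidylinositol, had a log2 difference of -0.57 (adjusted p = 0.53 from limma). Without vector line 2 it was -0.31, and with array weights -0.98 (adjusted p = 0.030). The cardiolipin synthase CRLS1 had one of -0.45 (adjusted p = 0.25), and it was called with array weights at -0.57 (adjusted p = 0.014). Of 15 measured genes of 16 listed for eicosanoids and platelet-activating factor, LTA4H of leukotriene synthesis had one of -0.39 (adjusted p = 0.65). For LTA4H it was -0.23 without vector line 3 and -0.18 without pEF1a-Pu.2 line 3. The cyclooxygenase PTGS1 had one of 0.33 (adjusted p = 0.44), and it was called with array weights at 0.44 (adjusted p = 0.039). All 14 listed genes of lipid peroxide formation and defence were measured. The cystine transporter SLC7A11 had a log2 difference of -0.48 (adjusted p = 0.59). It was -0.26 without vector line 2, -0.31 without pEF1a-Pu.2 line 3 and -0.80 with array weights (adjusted p = 0.042). The lipid peroxidase GPX4 had one of -0.43 (adjusted p = 0.59), which was -0.21 without pEF1a-Pu.2 line 3. Of 6 measured members of 7 other MBOAT family genes, which act on proteins, sterols or diacylglycerol, DGAT1 had one of 0.19 (adjusted p = 0.80), from 0.09 without pEF1a-Pu.2 line 2 and 0.10 without vector line 2 to 0.30 without pEF1a-Pu.2 line 1 and 0.36 with array weights. The ghrelin acyltransferase MBOAT4 had one of -0.17 (adjusted p = 0.79), which was -0.27 without vector line 3 and -0.26 with array weights.

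**Figure D3:**
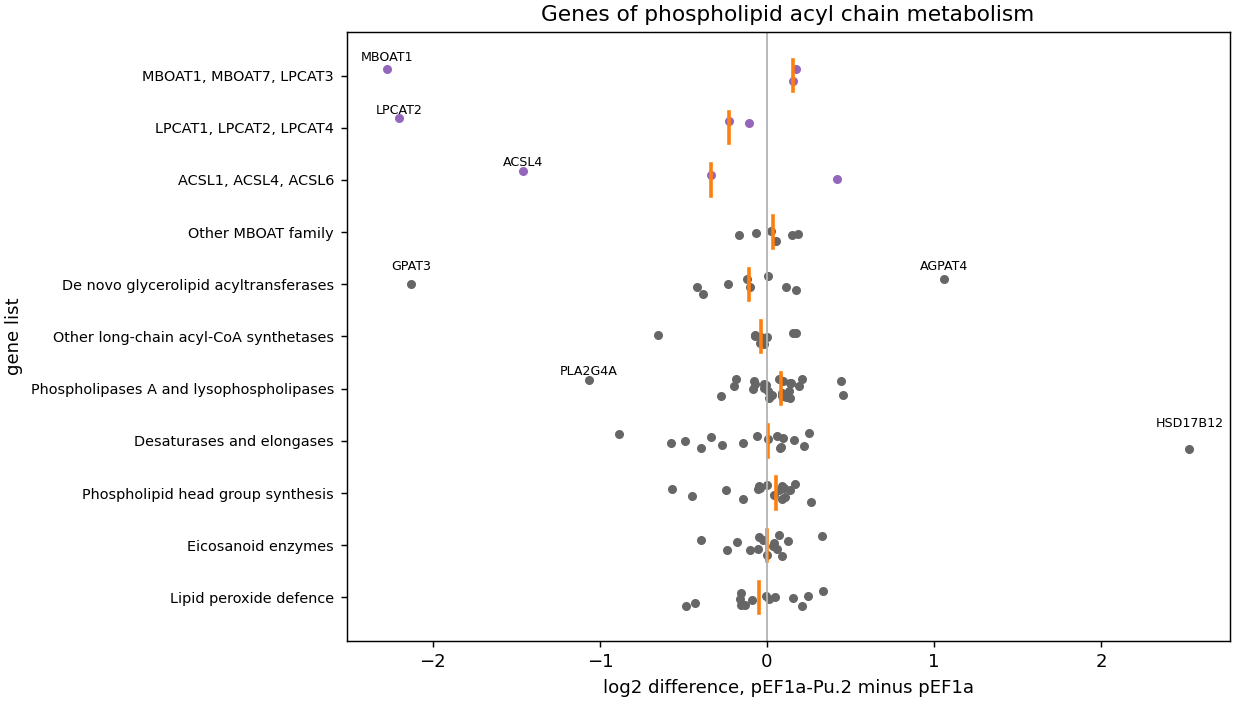
Log2 difference (horizontal axis, pEF1a-Pu.2 minus pEF1a) of the 9 genes (purple, top 3 rows) and of 117 genes in 8 lists around acyl chain remodelling (gray), with the median of each row in orange. Genes beyond 1 in size are named. Row labels are approximate: the de novo row is not limited to the first steps of synthesis. The eicosanoid row is not limited to enzymes, and the peroxide row is not limited to defence. GPAT3 and HSD17B12, at -2.13 and 2.53, are not called with all lines.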

How the data were processed

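The authors hybridized total RNA of each line to an Affymetrix Human Gene 1.0 ST array, used Affymetrix Expression Console to turn each array into the deposited log2 values, 1 per probe set. Which algorithm and version they ran is not given in the sources used here, and neither is a scan date or batch. Of 33297 probe sets, 19460 had 1 gene symbol in the platform annotation, 1754 had several and 12083 were unnamed here. For 769 genes with several probe sets the brightest was used. The 18417 genes were fitted by lmFit and eBayes of limma 3.58.1 (R 4.3.3), without covariates, p-values were adjusted by Benjamini-Hochberg, and the fit was tested on simulated data. The number of arrays limits the precision. Replicates are separate monoclonal lines. Neighbours and promoters came from RefSeq tables of GRCh38.p14, which were used for gene order and sequence only.

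The genes and gene lists were chosen with earlier results of these data known. Named were all members, the 2 genes of each list with the largest differences and any called, the 5 profiles nearest to MBOAT1, and SPI1. The alternatives were each line left out, the replicate block, other scalings, a filter on dim probe sets, array weights, a trend with robust fit and other treatments of probe sets. Other names (markers, neighbours) complete lists or were chosen after their values were seen.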

Additional observations from a re-analysis of the deposited data

How the results depend on the processing

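MBOAT1 was called under all 14 alternatives, with log2 differences from -2.44 to -2.16. Since MBOAT1 was chosen on this difference and the alternatives reuse the same arrays, these calls are not a separate test of it. LPCAT3 turned from 0.15 to -0.0198 with array weights, and LPCAT1, with 1 line left out, ran from -0.251 to 0.00114, the latter without pEF1a-Pu.2 line 3. The other 7 members, and the named genes of the lists, kept their direction in every alternative run. With all lines 68 genes were called (27 higher and 41 lower). With 1 line left out, the number called over all genes ran from 20 to 432 (8 to 159 higher and 11 to 273 lower), and how many of the 68 were among them was not counted. In these fits 1 to 3 members and 0 to 5 of the genes in the pathway lists were called. Median centring gave 17 higher, 50 in all and 1 member. Array weights, which ran from 0.403 for vector line 1 to 5.52 for vector line 2, gave 514 higher, 835 lower and 1349 in all, with 3 members and 11 genes of the pathway lists.

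Line numbers are shared by the groups. The deviations of same-numbered lines from their group means correlated at r = -0.147, -0.148 and -0.0445 across genes. These values show no likeness by number, but with 3 lines per group they cannot settle whether the lines were paired. With the replicate number as a block, 64 genes, 3 members and 1 gene of the pathway lists (GPAT3) were called. Quantile normalization, a filter on dim probe sets, a trend with robust fit, averaging probe sets per gene and testing each probe set gave 65 to 82 calls in all and 2 members each, MBOAT1 and ACSL4. The filter removed ACSL6, which has no value there. The median of all genes moved from 0.017 to 0.0019 and -0.016 with quantile normalization and median centring. Leaving out 1 line leaves 2 in its group, and how bright a probe set was over background was not analysed here.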
